A study of Mus musculus with 6 samples.

Results

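The genes described here are Tnf, 5 further ligands of the TNF superfamily (Tnfsf9, Tnfsf10, Tnfsf12, Tnfsf13b and Tnfsf14), both receptors of TNF (Tnfrsf1a and Tnfrsf1b) and the adaptor Traf1. These 9 genes, of 22377 in the count table, were taken by symbol and were chosen by family membership with their levels in these same libraries already known. Their differences between the groups are therefore given as a description. Calls from the fits over all genes are listed for them further below, and nothing is read from those calls. To learn how Npm1 acts in tumor-associated macrophages (TAMs), the study sequenced RNA in 6 libraries of 6 biological samples. The labels give the treatment of 3 libraries as wt and of 3 as knockdown, while the titles of the latter read ko. The paper's methods give the groups as Npm1+/+ and Npm1+/- mice, young adults of both sexes, which all carried subcutaneous tumors of Lewis lung carcinoma (LLC), a mouse lung cancer cell line. The heterozygous allele was not limited to macrophages, the labels give no strain, age, sex or batch and no genotype beyond these words, which were not reconciled with a heterozygous allele, and no strain or construction of the allele was found in the sources used here. The methods describe macrophages sorted as CD45+ CD11b+ F4/80+, whereas the labels give tumor tissue as the material and a small RNA library, and this difference was not resolved.

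TNF is made mainly by activated macrophages as a membrane protein that is cut to a soluble trimer. It binds TNFR1 (Tnfrsf1a), which carries a death domain and is present on most cells, and TNFR2 (Tnfrsf1b), which lacks a death domain and is found mostly on immune and endothelial cells. The receptors recruit TRAF adaptors and switch on NF-kB, and the related ligands act on receptors of the same superfamily to stimulate T cells, sustain B cells or kill target cells.

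Total counts ranged from 36550775 to 38147320 per library, where 3 counts, the most that a count of 0 allows, correspond to 0.0786 to 0.0821 CPM (counts relative to the library total) and cover counting error only. CPM values of genes below are in addition scaled between libraries by TMM. Npm1, the targeted gene, had 142, 380.2 and 381 CPM in wt replicates 1, 2 and 3 and 441, 499 and 343 in knockdown replicates 1, 2 and 3. Its mRNA was therefore no lower in the group labelled knockdown (log2 fold change 0.51, standard error 0.36, adjusted p = 0.436, edgeR, and 0.16, standard error 0.18, without wt replicate 1), and the directions below are those between libraries as labelled. Replicate 1 of wt stood apart, at -108 on the first principal component against -4.54 to 52.0 for the others, so the log2 fold changes of the genes described are also given without it. The 9 macrophage markers summed to between 14432 and 20231 CPM in the wt libraries and between 8503 and 14544 in those labelled knockdown. In 6 of these 9, and in 5 of the 7 neutrophil markers, each library labelled knockdown was below every wt library, against 12.6% of all genes tested. The other marker lists were neutrophil (1889 to 2093 CPM in wt, 836 to 1607 in knockdown), dendritic cell (214 to 366, then 238 to 339), T cell (26.9 to 96.2, then 77.6 to 215), NK cell (31.5 to 59.2, then 49.8 to 144), B cell (6.26 to 36.1, then 11.8 to 58.0), fibroblast (23.7 to 477, then 345 to 688), epithelial or carcinoma (35.2 to 137, then 129 to 191) and endothelial (32.7 to 39.8, then 29.7 to 33.5). None of the markers on these lists was at 0 in every library.

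Levels of different genes were compared as FPKM, which are CPM before TMM scaling divided by the gene's length in kilobases. Tnf had the highest level of the 9 genes, from 222 to 493 FPKM over the 6 libraries with a median of 377, which placed it above 97.6% to 98.9% of the genes tested in each library. Tnfrsf1b followed at 175 to 286 FPKM, Tnfsf9 at 63.7 to 122, Tnfrsf1a at 59.4 to 144 and Traf1 at 43.4 to 75.5. The ranges of Tnf and Tnfrsf1b over the 6 libraries overlapped, as did those of Tnfsf9, Tnfrsf1a and Traf1. Within each library, however, Tnf lay above Tnfrsf1b, at 1.07 to 2.70 times its level, and Tnfsf9 lay above Traf1. Tnfrsf1a had no constant order against Tnfsf9 or Traf1. Tnfsf14 lay lower, at 13.8 to 22.9 FPKM, and Tnfsf12 at 3.36 to 4.90. Tnfsf13b had 0.693 to 1.53 FPKM and Tnfsf10 had 0.230 to 0.653, the lowest of the 9. From Tnfsf14 down, each gene's range lay wholly below that of the gene before it.

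**Figure D1:**
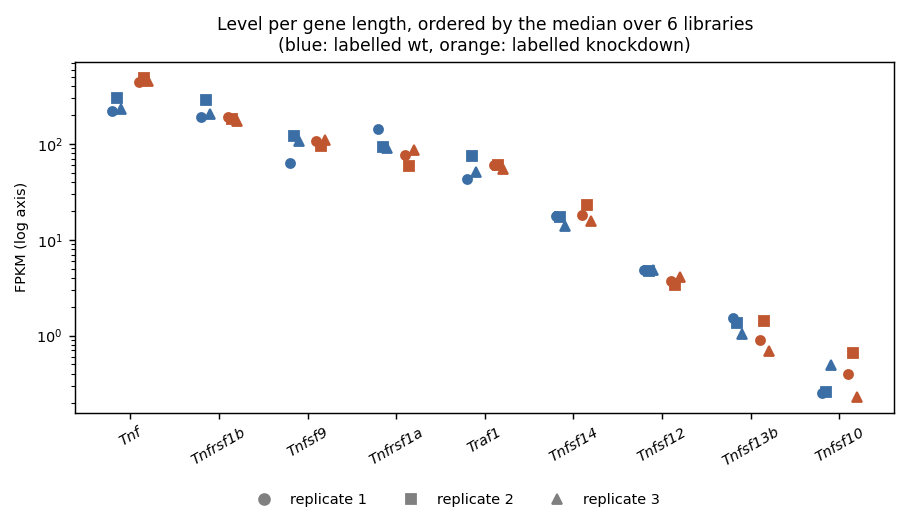
FPKM of the 9 genes (log axis) in each library, ordered by the median, with blue for libraries labelled wt, orange for libraries labelled knockdown and the marker shape for the replicate number. Tnf spans 222 to 493 FPKM and Tnfsf10 spans 0.230 to 0.653.

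The promoters of Tnf and Tnfrsf1b, the ligand and the receptor with the highest levels per length, are shown because their mRNAs differed in opposite directions between the groups. Each run gives the 250 bases before the RefSeq transcription start on GRCm38, 5′ to 3′ on the minus strand, at chr17:35202008-35202257 for Tnf and chr4:145246871-145247120 for Tnfrsf1b. Capitals mark matches, on either strand, to a STAT site (TTCNNNGAA), an AP-1 site (TGANTCA), an interferon-stimulated element (GAAANNGAA), the kappaB consensus of NF-kB or a TATA box (TATAAA), the last added after the windows were read.
Tnf: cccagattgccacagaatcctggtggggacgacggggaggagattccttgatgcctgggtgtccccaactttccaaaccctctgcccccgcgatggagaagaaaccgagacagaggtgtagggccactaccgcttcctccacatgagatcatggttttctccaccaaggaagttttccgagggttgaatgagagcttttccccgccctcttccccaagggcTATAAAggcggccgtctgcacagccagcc
Tnfrsf1b: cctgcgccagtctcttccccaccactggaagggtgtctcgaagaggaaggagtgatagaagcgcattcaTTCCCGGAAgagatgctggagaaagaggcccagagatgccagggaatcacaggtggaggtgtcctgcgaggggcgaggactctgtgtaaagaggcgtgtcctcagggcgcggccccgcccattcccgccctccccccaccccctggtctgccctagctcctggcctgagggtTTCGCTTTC

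The Tnf window holds a TATA box that begins 29 bases before the start and no match to the other letters. The Tnfrsf1b window holds a match to the STAT site that begins 181 bases before the start and a match to the interferon-stimulated element 9 bases before it, and no TATA box. Of 32851 promoter windows of this length, 12.4% hold the TATA letters, 7.02% the STAT site, 7.13% the interferon-stimulated element, 6.75% the AP-1 site and 7.25% the kappaB consensus. RefSeq windows were found for 7 of the 9 genes, 8 windows in all, of which 1 held the TATA letters, 2 the STAT site, 2 the AP-1 site, 2 the interferon-stimulated element and 0 the kappaB consensus. These are matches of letters only and do not show binding.

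Tnf (NCBI Gene 21926, chromosome 17 from 35199381 to 35202007 on GRCm38, minus strand) has no annotated neighbor that overlaps it. Its level was 393, 541 and 393 CPM in wt replicates 1, 2 and 3 and 705, 711 and 770.0 CPM in knockdown replicates 1, 2 and 3. Each library labelled knockdown was therefore above each wt library, and the gap between the groups was wider than the range of those labelled knockdown. The means were 443 ± 85.4 CPM (SD, n = 3) and 729 ± 35.9 (SD, n = 3), a 1.65-fold higher level and a log2 fold change of 0.72 (standard error 0.16). Without wt replicate 1 the log2 fold change was 0.64 (standard error 0.17). In bulk RNA, more cells that express a gene and more RNA per cell cannot be told apart. T cells also make TNF, and the T cell list was highest in knockdown replicate 2, at 215 CPM, the library with the highest Tnf level in FPKM (493). On the TMM-scaled CPM scale, Tnf was highest in knockdown replicate 3. Wt replicate 3 had a T cell sum of 96.2 CPM, above knockdown replicates 1 (87.3) and 3 (77.6), and less Tnf than either. In Npm1+/- mice the paper reports less infiltration by CD8+ T cells and fewer that are positive for TNF, by flow cytometry. In stimulated cultures of a human monocyte line and of marrow-derived macrophages, it reports TNF mRNA as unchanged with less Npm1. Both differ from these libraries in cells or in measure. The part of T cells in the Tnf level was not tested.

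The receptors showed the opposite direction. Tnfrsf1b (NCBI Gene 21938, chromosome 4 from 145213463 to 145246870, minus strand) had 1013, 1508 and 1037 CPM in wt replicates 1, 2 and 3 and 904, 786 and 890.2 in knockdown replicates 1, 2 and 3. The groups did not overlap, although wt replicates 1 and 3 lay much closer to the libraries labelled knockdown than replicate 2 did. The log2 fold change was -0.46 (standard error 0.19), from 1186 ± 279 CPM to 860.1 ± 64.7 (SD, n = 3 each), and -0.57 (standard error 0.19) without wt replicate 1. Without wt replicate 2, the highest library, it was -0.26 (standard error 0.16). On the deposited FPKM scale, which has no scaling beyond the library total, knockdown replicate 1 at 192.8 exceeded wt replicate 1 at 191.7, so that the groups overlapped there.

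Tnfrsf1a (NCBI Gene 21937, chromosome 6 from 125349362 to 125362484, plus strand) had 332, 214 and 198 CPM in wt replicates 1, 2 and 3 and 157, 112 and 194 in knockdown replicates 1, 2 and 3. The highest library labelled knockdown was just below the lowest wt library, and wt replicate 1 was far above the rest. The log2 fold change was -0.69 (standard error 0.26), from 248 ± 73.4 CPM to 154 ± 41.4 (SD, n = 3 each). Without wt replicate 1 it was -0.42 (standard error 0.22), so that the size of the estimate rests in part on this library.

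**Figure D2:**
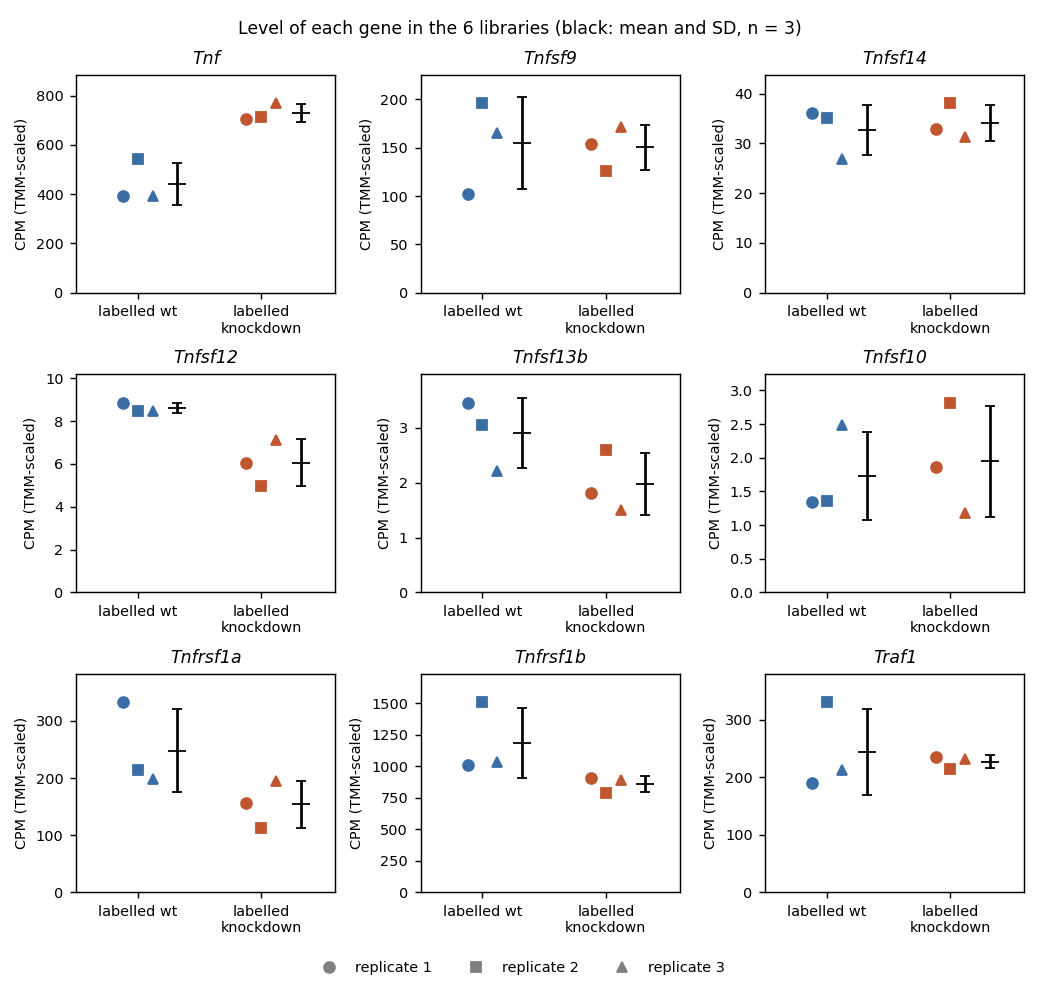
TMM-scaled CPM of the 9 genes in each library, for the groups labelled wt (blue) and knockdown (orange), with the marker shape for the replicate number and the mean and SD (n = 3) in black. The libraries labelled knockdown lie above all wt libraries for Tnf (705 to 770.0 against 393 to 541 CPM) and below them for Tnfrsf1a, Tnfrsf1b and Tnfsf12.

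A ratio of genes within a library does not depend on how libraries are scaled. The FPKM of Tnf divided by that of Tnfrsf1b was 1.16, 1.07 and 1.13 in wt replicates 1, 2 and 3, and 2.32, 2.70 and 2.58 in knockdown replicates 1, 2 and 3. The ratio was thus nearly constant among wt libraries, wt replicate 1 included, and more than 2 in each library labelled knockdown. Because Tnf was higher and Tnfrsf1b lower in the libraries labelled knockdown, this separation restates those differences and is no further support. The ratio of Tnfrsf1b to Tnfrsf1a behaved differently. It was 1.33, 3.09 and 2.29 in wt replicates 1, 2 and 3 and 2.53, 3.08 and 2.00 in knockdown replicates 1, 2 and 3, so that the groups overlapped. Of the summed FPKM of the 6 ligands, Tnf made up 71.6%, 67.8% and 64.5% in wt replicates 1, 2 and 3. In knockdown replicates 1, 2 and 3 it made up 77.4%, 79.9% and 77.4%, again without overlap. As Tnf was most of this sum, its share largely restates its higher level.

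**Figure D3:**
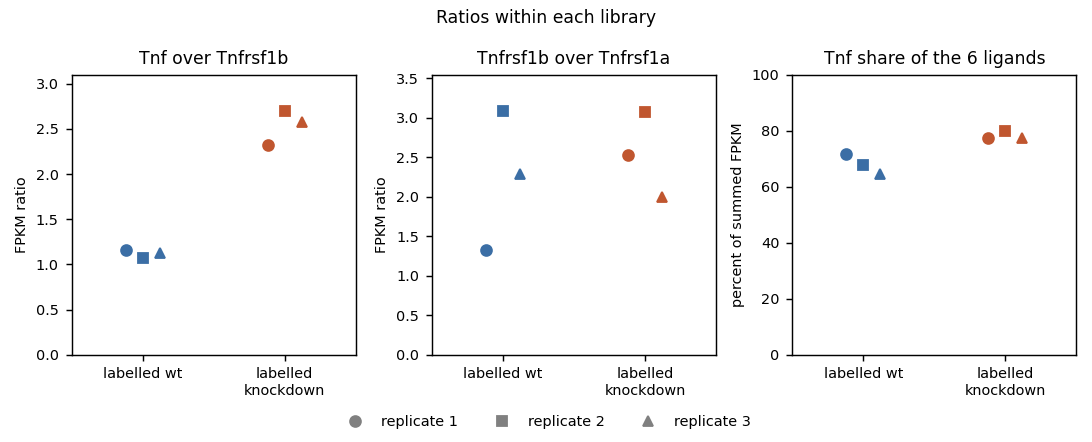
Ratios of FPKM values within each library, by group and replicate: Tnf over Tnfrsf1b, Tnfrsf1b over Tnfrsf1a, and the percentage of the summed FPKM of 6 ligands that is Tnf. Tnf over Tnfrsf1b is 1.07 to 1.16 in the wt libraries and 2.32 to 2.70 in those labelled knockdown, while Tnfrsf1b over Tnfrsf1a overlaps.

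Among the other ligands, only Tnfsf12 separated the groups. Tnfsf12 (TWEAK, NCBI Gene 21944, chromosome 11 from 69686250 to 69695849, minus strand), the ligand of Fn14 (Tnfrsf12a), had 8.86, 8.48 and 8.45 CPM in wt replicates 1, 2 and 3 and 6.05, 4.96 and 7.14 in knockdown replicates 1, 2 and 3. The wt libraries lay close together, at 8.60 ± 0.227 CPM (SD, n = 3), and all were above those labelled knockdown, at 6.05 ± 1.09 (SD, n = 3). Its log2 fold change was -0.51 (standard error 0.21), and -0.49 (standard error 0.22) without wt replicate 1. Tnfsf12 shares its locus and strand with the read-through gene Tnfsfm13 and overlaps an antisense gene, Tnfsf13os, and whether the counting used strand is not given in the sources used here, so this value is uncertain.

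Tnfsf9 (NCBI Gene 21950, chromosome 17 from 57105325 to 57107757, plus strand), the ligand of the T cell costimulator 4-1BB, had 103, 196 and 166 CPM in wt replicates 1, 2 and 3 and 153, 126 and 172 in knockdown replicates 1, 2 and 3. The groups overlapped, wt replicate 1 was the lowest of all 6 libraries, and the estimated log2 fold change came to -0.04 (standard error 0.24), or -0.27 (standard error 0.16) without it. A long noncoding RNA gene, Gm11110, lies on the opposite strand at this locus. Tnfsf14 (LIGHT, NCBI Gene 50930, chromosome 17 from 57189492 to 57194177, minus strand), which binds HVEM and the lymphotoxin beta receptor, had 36.1, 35.1 and 26.8 CPM in wt replicates 1, 2 and 3 and 32.8, 38.1 and 31.3 in knockdown replicates 1, 2 and 3. These values were interleaved, with a log2 fold change of 0.06 (standard error 0.16), or 0.14 without wt replicate 1.

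The low ligands gave little to compare. Tnfsf13b (BAFF, a B cell survival factor, NCBI Gene 24099, chromosome 8 from 10006467 to 10039072, plus strand) had 123, 108 and 83 counts in wt replicates 1, 2 and 3 and 71, 109 and 55 in knockdown replicates 1, 2 and 3. Scaled to CPM, knockdown replicate 2 at 2.60 lay above wt replicate 3 at 2.22, with a log2 fold change of -0.56 (standard error 0.34), or -0.42 without wt replicate 1. Tnfsf10 (TRAIL, a ligand of death receptors, NCBI Gene 22035, chromosome 3 from 27317028 to 27342427, plus strand) had 48, 48 and 93 counts in wt replicates 1, 2 and 3 and 73, 118 and 43 in knockdown replicates 1, 2 and 3, with overlapping groups and a log2 fold change of 0.17, or 0.02 without wt replicate 1. Its spread within a group was the largest of the 9 genes, 37.9% of the mean in wt and 42.3% in knockdown libraries.

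Traf1 (NCBI Gene 22029, chromosome 2 from 34941750 to 34961772, minus strand), an adaptor that binds TNFR2 and is itself induced by NF-kB, had 190.4, 331 and 213 CPM in wt replicates 1, 2 and 3 and 236, 215 and 232 in knockdown replicates 1, 2 and 3. The libraries labelled knockdown lay inside the range of the wt libraries. The log2 fold change was -0.10 (standard error 0.21), and -0.26 (standard error 0.19) without wt replicate 1. As for Tnf and Tnfrsf1b, wt replicate 2 was the highest wt library, and the spread in the group labelled knockdown was 4.99% of the mean against 30.8% in wt.

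All 9 genes passed the filter on low counts. With edgeR's quasi-likelihood test, 0 of the 9 had an adjusted p under 0.05, against 0% of all 13884 genes tested. At an unadjusted p under 0.05 there were 4 of the 9 (Tnf, Tnfrsf1a, Tnfrsf1b and Tnfsf12), against 15.2% of all genes, and DESeq2 called 1 of the 9 (Tnf), against 0.778%. All libraries labelled knockdown were above all wt libraries in 1 of the 9, against 13.3% of all genes, and below them in 3 of the 9, against 12.6%. Since the 9 genes were taken with these values known, nothing is read from these calls and shares. Scaled to the macrophage markers in place of all genes, the log2 fold change of Tnf was 1.31 (standard error 0.25) and that of Tnfrsf1b was 0.12, of Tnfsf12 0.06 and of Tnfrsf1a -0.10. That scaling set the median of all genes tested at 0.63, so that Tnf stayed above the median gene and both receptors below it. With it, 0 of the 9 genes were lower in every library labelled knockdown. The share of all genes was not counted under that scaling, so nothing is read from this 0. The part of the macrophage and neutrophil lists in the lower receptor levels was not tested.

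**Figure D4:**
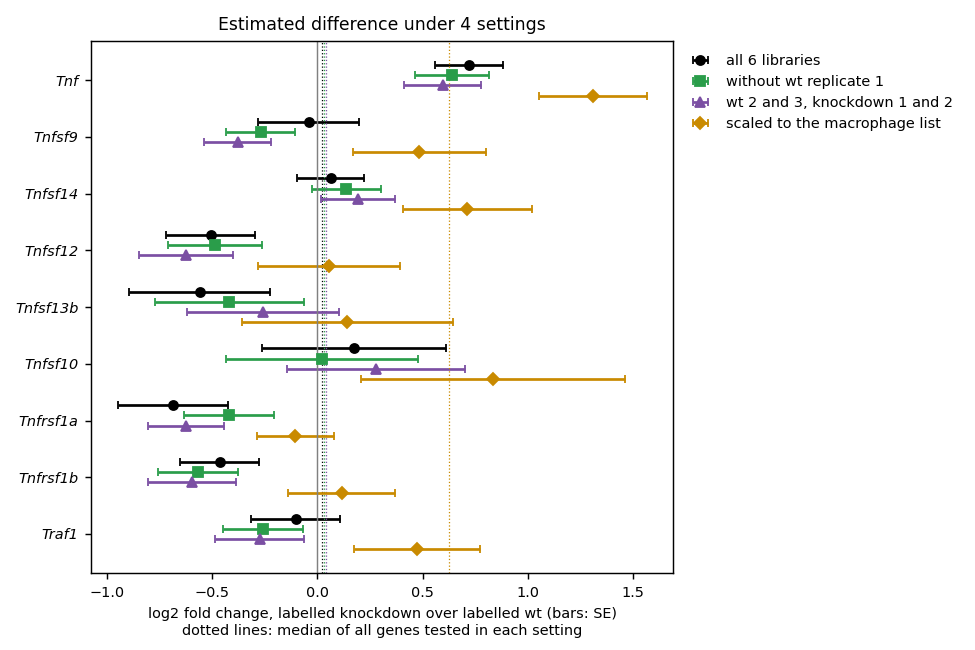
Log2 fold change (labelled knockdown over labelled wt) of the 9 genes with its standard error, over all 6 libraries, without wt replicate 1, over wt replicates 2 and 3 with knockdown replicates 1 and 2, and with scaling to the macrophage markers. Tnf lies right of the dotted line of its setting, the median of all genes, in each case (0.72, 0.64, 0.60 and 1.31), and Tnfrsf1a and Tnfrsf1b lie left of it.

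The other genes of the pathway were taken from 5 lists with 93 genes in all, of which 86 had enough counts to be tested. None of the 86 passed an adjusted p of 0.05 in edgeR, with a smallest adjusted p = 0.328, and DESeq2 called 0. At an unadjusted p under 0.05 there were 18 of the 86, of which 9 were higher and 9 lower in the libraries labelled knockdown, beside 15.2% of all genes tested (958 higher and 1154 lower). Groups did not overlap in 8 genes that were higher and 10 that were lower, 9.3% and 11.6% of the 86, beside 13.3% and 12.6% of all genes tested.

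Of 12 further ligands, 9 were tested, and 8 of these had an estimate above 0, with a median log2 fold change of 1.31 against 0.02 for all genes. Levels were low, with a median FPKM of at least 1 in only 4 of the 9. The estimates ran from -0.64 to 2.35, and from -0.43 to 1.92 without wt replicate 1. Most of these ligands are known from T cells (such as Fasl, Cd40lg, Lta and Tnfsf8), and 7 of the 9 were highest in knockdown replicate 2. That library also had the highest T cell, NK cell and B cell marker sums, 215, 144 and 58.0 CPM. The share of all genes tested that were highest there was not counted. Whether T, NK or B cells account for this was not tested. The groups did not overlap in 2. Tnfsf15 (TL1A, a ligand of the death receptor DR3) had 0.225, 1.49 and 1.20 CPM in wt replicates 1, 2 and 3 and 2.82, 4.68 and 1.70 in knockdown replicates 1, 2 and 3 (log2 fold change 1.65, standard error 0.67, adjusted p = 0.328, edgeR, and 1.18 without wt replicate 1). Tnfsf13 (APRIL, a ligand of plasma cell receptors) had 2.87, 2.20 and 1.68 CPM in wt and 1.55, 1.12 and 1.67 in knockdown libraries (log2 fold change -0.64, standard error 0.34, adjusted p = 0.357, edgeR, and -0.43 without wt replicate 1). Wt replicate 3 and knockdown replicate 3 were nearly level in this gene.

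Of 26 further receptors, 22 were tested, with 10 estimates above 0 and 12 below. The groups did not overlap in 3 that were higher and 4 that were lower. Tnfrsf18 (GITR, a costimulatory receptor of regulatory T cells) had 4.92, 5.19 and 9.28 CPM in wt replicates 1, 2 and 3 and 11.7, 18.2 and 10.3 in knockdown replicates 1, 2 and 3, with the highest value in knockdown replicate 2, as for the T cell list (log2 fold change 1.05, adjusted p = 0.328, edgeR, and 0.89 without wt replicate 1). Tnfrsf12a (Fn14), the receptor of TWEAK, had 15.6, 23.7 and 15.0 CPM in wt and 35.7, 33.4 and 24.3 in knockdown libraries (log2 fold change 0.78, standard error 0.23, adjusted p = 0.328, edgeR, and 0.68 without wt replicate 1), opposite in direction to its ligand Tnfsf12. Tnfrsf12a is also known from fibroblasts and carcinoma cells, whose marker sums ran from 23.7 to 477 and from 35.2 to 137 CPM in wt libraries and from 345 to 688 and from 129 to 191 CPM in those labelled knockdown. Tnfrsf21 (DR6, a death receptor) had 101, 48.1 and 56.1 CPM in wt and 31.7, 23.8 and 43.5 in knockdown libraries. The log2 fold change of Tnfrsf21 was -1.05 (SE 0.33, adjusted p = 0.328, edgeR) and -0.66 without wt replicate 1, which was the highest library, as for Tnfrsf1a.

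All 30 genes of receptor signalling were tested, with a median log2 fold change of -0.04. Groups did not overlap in 1 that was higher and 4 that were lower. Traf4, an adaptor of the TRAF family, had 12.3, 13.5 and 15.7 CPM in wt replicates 1, 2 and 3 and 21.1, 27.6 and 19.5 in knockdown replicates 1, 2 and 3 (log2 fold change 0.72, standard error 0.19, adjusted p = 0.328, edgeR). Ikbkb, the kinase IKK-beta that releases NF-kB, had 305, 183 and 206 CPM in wt and 155, 127 and 182 in knockdown libraries, with less than 1 CPM between wt replicate 2 and knockdown replicate 3 (log2 fold change -0.58, adjusted p = 0.328, edgeR). Tradd, the adaptor that binds the death domain of TNFR1, had 23.2, 16.7 and 16.6 CPM in wt and 12.7, 12.9 and 14.3 in knockdown libraries (log2 fold change -0.50, standard error 0.18, adjusted p = 0.328, edgeR). Without wt replicate 1 the log2 fold changes were 0.64 for Traf4, -0.34 for Ikbkb and -0.33 for Tradd.

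The 12 genes of TNF shedding and mRNA decay had a median of -0.13, with 2 higher and 1 lower without overlap. Rhbdf2, an iRhom protein that brings the TNF-cleaving protease ADAM17 to the cell surface, had 162, 155 and 125 CPM in wt replicates 1, 2 and 3 and 112, 109 and 105 in knockdown replicates 1, 2 and 3 (log2 fold change -0.44, standard error 0.13, adjusted p = 0.328, edgeR). Rc3h1 (Roquin-1), which promotes decay of Tnf mRNA, had 72.9, 64.0 and 87.9 CPM in wt and 94.7, 95.4 and 88.7 in knockdown libraries (log2 fold change 0.31, adjusted p = 0.331, edgeR), so that wt replicate 3 and knockdown replicate 3 nearly met. Timp3, an inhibitor of ADAM17 that is made by fibroblasts, reached at most 0.793 CPM and was at 0 in wt replicate 1. Of the 13 TNF response genes 5 had an estimate above 0, with a median of -0.13, and only Irf1, a transcription factor of the interferon and TNF responses, separated the groups. Irf1 had 300.1, 286 and 226 CPM in wt and 394, 412 and 375 in knockdown libraries (log2 fold change 0.54, standard error 0.14, adjusted p = 0.328, edgeR). Without wt replicate 1 the log2 fold changes came to -0.37 for Rhbdf2, 0.29 for Rc3h1 and 0.62 for Irf1.

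**Figure D5:**
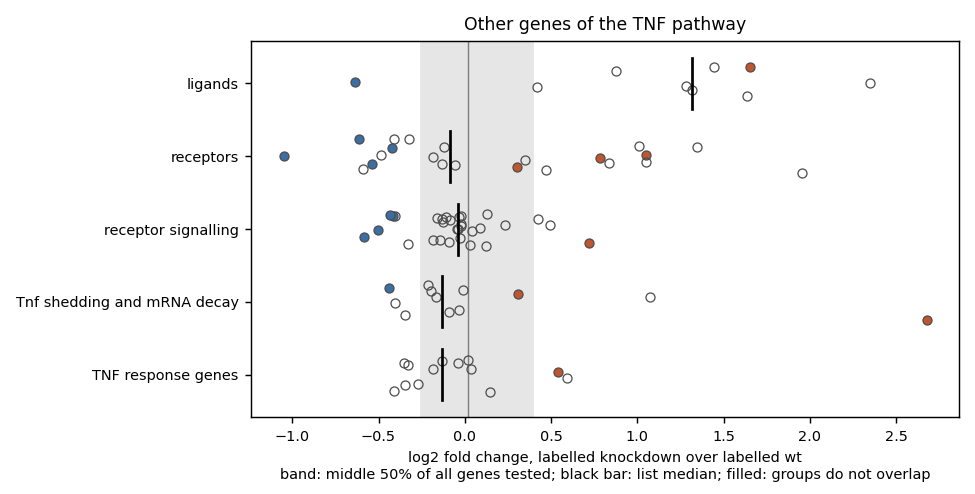
Log2 fold change (labelled knockdown over labelled wt) of the 86 tested genes of 5 pathway lists, with a black bar at the list median, filled points where the groups do not overlap, and a gray band for the middle 50% of all genes tested (-0.25 to 0.40). The ligand list, in which only 4 of the 9 tested genes have a median FPKM of at least 1, has its median at 1.31. The other 4 lists have theirs between -0.13 and -0.04.

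Across the 6 libraries, the genes whose log2 CPM followed Tnf most closely were C430042M11Rik (Pearson r = 0.993), Gm15682 (r = 0.987), Gnat2 (r = 0.985), Pnrc1 (r = 0.983) and Timp3 (r = 0.982), as a description over 6 libraries that share a group difference. Of these only Pnrc1, a nuclear receptor coactivator, was well expressed, at 256, 269.8 and 245 CPM in wt replicates 1, 2 and 3 and 299, 295 and 303 in knockdown replicates 1, 2 and 3. The other 4 reached at most 1.29 CPM in any library.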

How the data were processed

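Raw gene counts and FPKM were deposited by the authors, and each FPKM value equals the count over a fixed gene length and the library's total. The submitters' processing notes name mm10, and the aligner, counter and annotation are not given in the sources used here. All columns were matched to a sample by title. Total counts ranged from 36550775 to 38147320, and every pair of libraries within a group differed by more than sampling noise (chi-square per gene from 23.9 to 106). Groups were compared over all 13884 genes passing filterByExpr with edgeR 4.0.16 in R 4.3.3 (TMM, glmQLFit, glmQLFTest, Benjamini-Hochberg). Standard errors were obtained from the log2 fold change and the F statistic. The script was tested on simulated counts. Correlations used log2 CPM with a prior count of 2. Alternatives used DESeq2 1.42.0 and limma 3.58.1 (log2 of FPKM plus 1 or plus 0.1).

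The 9 genes and all lists were chosen with earlier results of these data known. Genes named from a list are the 3 with the largest log2 fold change in size among those whose groups do not overlap, and, for Tnf, the 5 with the highest correlation. Coordinates are from GENCODE M21 (GRCm38, the build mm10), and promoters are from RefSeq (GRCm38.p6). The labels do not say whether the samples came from separate mice, so p-values measure the spread between these samples, which may be technical. A heatmap in the paper has 2 columns per group and its legend gives 2 individual mice, fewer than the 3 libraries per group tested here. The columns carry no library names. Wt replicates 2 and 3 with knockdown replicates 1 and 2, which an earlier matching of its colors to the deposited values had picked and which was not repeated here, were therefore also fitted alone.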

Additional observations from a re-analysis of the deposited data

How the results depend on the processing

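With TMM scaling, edgeR called 0 genes, and this count was also 0 with RLE, upper quartile and macrophage-list scaling, without a filter, with at least 10 counts in every library, with limma, with each library left out and in a fit blocked on replicate number. DESeq2 called 108 of 13884 genes over 6 libraries (0.778%). Over wt replicates 2 and 3 with knockdown replicates 1 and 2 it called 1333 of 14174. Of these 1333, 18 were on the pathway lists of 93 genes, against 0 in every other setting. Since far more genes were called in all, nothing about the pathway is read from the 18. The cause of the larger DESeq2 counts was not tested. Libraries that share a replicate number did not deviate alike from their group means (correlations of deviations -0.241, 0.06 and -0.337). With 3 libraries per group, these correlations cannot exclude a pairing. With the replicate block the log2 fold change was 0.74 for Tnf, -0.69 for Tnfrsf1a and -0.44 for Tnfrsf1b, and no sign changed.

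Tnf stayed above 0 (0.56 to 1.31) and Tnfrsf1a below 0 (-0.89 to -0.10) in all 17 alternatives, while Tnfrsf1b ran from -0.57 to -0.26 with a library left out, smallest in size without wt replicate 2. Of the 9 genes, 3 were lower in every library labelled knockdown, against 0 with macrophage-list scaling and 2 on either FPKM scale. This count was 3 to 4 with a library left out. It was 4 in edgeR over wt replicates 2 and 3 with knockdown replicates 1 and 2. Higher in every such library was 1 gene, with 1 to 2 when a library was left out. It was 2 without wt replicate 2, where Traf1 joined Tnf. The shares of all genes were not counted in these alternatives, so nothing is read from the counts. Macrophage-list scaling, which moved the median of all genes by 0.60, turned the sign of Tnfrsf1b (0.12), Tnfsf12 (0.056), Tnfsf13b (0.14), Tnfsf9 (0.48) and Traf1 (0.47), all below that shift. With FPKM plus 1 and plus 0.1 the median of all genes was 0.092 and 0.16, against 0.022 with TMM scaling in edgeR. These 2 settings turned the sign of Tnfsf9 (0.14 and 0.15) and Traf1 (0.085 and 0.087). With a library left out, the range crossed 0 for Tnfsf9 (-0.27 to 0.16), Traf1 (-0.26 to 0.17), Tnfsf14 (-0.079 to 0.14) and Tnfsf10 (-0.20 to 0.51). Tnfsf10 and Tnfsf13b had at most 123 counts in a library, and their spread within a group was 21.7% to 42.3% of the mean.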

Other observations

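The most abundant transcript of each pathway list, chosen after the values were seen, showed overlapping groups except for Tnfrsf9. Among the TNF response genes this was Cxcl2, a neutrophil chemokine, with a median of 6057 FPKM and a log2 fold change of -0.04 (standard error 0.27). Zfp36 (tristetraprolin), which binds Tnf mRNA and hastens its decay, had a median of 1195 FPKM. Its level was 3071, 2078 and 2386 CPM in wt replicates 1, 2 and 3 and 1797, 1432 and 2465 in knockdown replicates 1, 2 and 3, so that knockdown replicate 3 exceeded wt replicates 2 and 3 (log2 fold change -0.40, standard error 0.24, adjusted p = 0.387, edgeR). Tnfaip3 (A20), which limits NF-kB activation by TNF, had a median of 554 FPKM and a log2 fold change of 0.09 (standard error 0.19). Among receptors, Tnfrsf9 (4-1BB), the partner of Tnfsf9, had 66.7, 72.1 and 73.6 CPM in wt and 83.9, 90.7 and 87.4 in knockdown libraries (log2 fold change 0.30, standard error 0.10, adjusted p = 0.328, edgeR). The groups did not overlap for this receptor, while those of its ligand did. Among ligands it was Ltb, at a median of 8.08 FPKM, with the highest value in knockdown replicate 2.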
